A study of Homo sapiens with 18 samples.

Results

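The mitochondrial ribosomal protein genes are the nuclear genes whose symbols begin with MRPL or MRPS followed by a number, and 63 of the 20705 symbols in the deposited count table carry such a name. They were chosen by name alone, across all 9 groups of samples. Of these 63 members, 41 encode proteins of the large subunit of the mitochondrial ribosome, including MRPS30 and MRPS18A, which bear small-subunit names but sit in the large subunit. Another 21 encode proteins of the small subunit. MRPS36 is no core subunit of the ribosome and is better known as a component of the 2-oxoglutarate dehydrogenase complex.

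The mitochondrial ribosome translates the few proteins encoded by mitochondrial DNA, which are core subunits of the respiratory chain and of ATP synthase. Its RNAs are transcribed in the organelle, while its proteins are encoded in the nucleus, made in the cytosol and imported. Some of these proteins have counterparts in bacterial ribosomes, and others are found only in mitochondria.

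Both CHL1 and A375 are established lines of human melanoma cells, the former with wild-type BRAF and NRAS and mutant p53 and the latter with mutant BRAF and wild-type p53. Cells were treated with DMSO as the control, with palbociclib at 1 μM for 72 hours or 6 days, or with GSK3326595 at 500 nM for 72 hours. Palbociclib inhibits the cell cycle kinases CDK4 and CDK6 (CDK4/6i), and GSK3326595 inhibits the arginine methyltransferase PRMT5 (PRMT5i). Each of the 9 groups had 2 replicates, giving 18 libraries of poly-A RNA. In CHL1, a single control of 72 hours served all 3 treatments, so these comparisons share their control samples. A375 had a control at 72 hours and another at 6 days. Nothing in the labels states that replicates came from separate cultures, so p-values measure only the spread between these samples, which may be technical. Each genotype is represented by a single line, without untransformed melanocytes beside it.

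The libraries held 16213475 to 37424081 counts, and each library had 10 or more counts for at least 60 of the 63 members. In all, 4 members (MRPL4, MRPL46, MRPS2 and MRPS17) had fewer than 10 counts in some library. The members together took 0.204% to 0.318% of the counts of a library. In 4 libraries, both of CHL1 PRMT5i and both of the A375 control at 6 days, counts of GC-rich transcripts were low against GC-poor ones. The median deviation of the GC-richest 10% of genes minus that of the GC-poorest 10% was -2.86 and -2.20 on the log2 scale in the former pair and -2.53 and -1.24 in the latter, against -0.19 to 0.55 in the other 14 libraries. Each deviation was taken from the median of the same line, so these values do not compare the lines. Fold changes that rest on these libraries are therefore given also after a correction for transcript GC content, which was not applied to levels in CPM. The melanocyte regulator MITF lay at 63.8 to 211 CPM, the count of a gene relative to the size of its library, in every library. Of the pigment genes, PMEL, TYR and TYRP1 stayed at or below 5.02 CPM. DCT lay at 36.3 to 142 CPM in CHL1 and at most at 1.79 CPM in A375. S100B, also a gene of the melanocyte lineage, lay at 11.2 to 127.9 CPM in CHL1 and at 3.57 to 108.5 CPM in A375. The leukocyte marker PTPRC reached 7.41 to 16.8 CPM in CHL1 and at most 0.588 CPM in A375. In bulk RNA, fewer cells of a type and less RNA per cell cannot be told apart.

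The promoters of 4 members are shown because the comparisons below turn on these genes. MRPL48 and MRPS27 fell in CHL1 under CDK4/6i, MRPL1 passed the test in the largest number of comparisons, and MRPL41 passed it in opposite directions in A375. The sequences are those of RefSeq (GRCh38.p14) and run 5′ to 3′ on the strand of the gene, from 250 bases before to 50 bases after the start site. They lie at chr11:73787624-73787923 (plus strand) for MRPL48, chr5:72320191-72320490 (minus strand) for MRPS27, chr4:77862580-77862879 (plus strand) for MRPL1 and chr9:137551629-137551928 (plus strand) for MRPL41. Capitals mark the motif matches described next.
MRPL48 promoter: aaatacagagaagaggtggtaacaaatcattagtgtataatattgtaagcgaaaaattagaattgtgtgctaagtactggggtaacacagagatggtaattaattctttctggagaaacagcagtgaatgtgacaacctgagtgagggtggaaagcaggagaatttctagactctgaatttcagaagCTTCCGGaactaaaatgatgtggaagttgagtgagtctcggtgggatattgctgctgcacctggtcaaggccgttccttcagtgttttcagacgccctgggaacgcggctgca
MRPS27 promoter: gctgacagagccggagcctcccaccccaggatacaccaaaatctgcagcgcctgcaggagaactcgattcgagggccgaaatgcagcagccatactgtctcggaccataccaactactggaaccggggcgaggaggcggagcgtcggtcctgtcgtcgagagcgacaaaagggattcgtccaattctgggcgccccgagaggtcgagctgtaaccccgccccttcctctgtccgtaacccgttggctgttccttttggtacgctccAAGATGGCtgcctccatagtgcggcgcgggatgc
MRPL1 promoter: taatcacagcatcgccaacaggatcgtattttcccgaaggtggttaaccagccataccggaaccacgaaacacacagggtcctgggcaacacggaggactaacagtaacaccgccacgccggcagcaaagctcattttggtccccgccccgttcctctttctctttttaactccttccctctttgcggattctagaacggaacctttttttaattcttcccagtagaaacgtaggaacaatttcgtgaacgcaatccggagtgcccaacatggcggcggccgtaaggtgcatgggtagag
MRPL41 promoter: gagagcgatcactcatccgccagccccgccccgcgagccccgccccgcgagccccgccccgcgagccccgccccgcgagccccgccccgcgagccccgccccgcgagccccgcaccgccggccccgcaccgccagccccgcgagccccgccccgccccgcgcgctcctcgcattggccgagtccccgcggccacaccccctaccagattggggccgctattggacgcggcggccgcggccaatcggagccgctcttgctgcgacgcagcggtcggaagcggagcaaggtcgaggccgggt

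Such promoters were found for 55 of the 63 members. Both strands were searched for 5 sets of letters known as binding motifs of regulators of mitochondrial or cell cycle genes. The ETS motif CCGGAAG, bound by factors such as GABPA, stood in 22 of the 55 member promoters (40%) against 10.3% of 35093 promoters of all genes. Each member gave a single promoter, whereas the 35093 hold every distinct entry of a gene, expressed or not. The shares are therefore not of like sets, and expressed genes alone were not tested. The YY1 motif AAGATGGC stood in 17 (30.9%) against 2.9% of all promoters. The NRF1 motif stood in 6 (10.9%) against 5.8%, the E-box CACGTG in 5 (9.1%) against 7.3%, and the E2F motif TTTCCCGC in 1 (1.8%) against 1.6%. The MRPL48 promoter held an ETS match and that of MRPS27 a YY1 match close to the start site, while those of MRPL1 and MRPL41 held none of the 5 motifs. The bases of the promoters also differ, with a GC content of 43.3% for MRPL48, 61.3% for MRPS27, 51.7% for MRPL1 and 80.7% for MRPL41.

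The 63 genes were placed on GRCh37. MRPL48 lies at chr11:73498917-73576178 and its canonical transcript has 8 exons. MRPS27 lies at chr5:71510780-71617544 (11 exons), MRPL1 at chr4:78783984-78873939 (9 exons) and MRPL41, the most GC-rich member, at chr9:140446331-140447007 (2 exons). Transcript GC content ranged from 33.5% to 66.7% with a median of 45.6% over the members. Canonical transcripts had a median length of 1315 bases, against 3387 bases over 13514 genes of known GC content whose mean reached 1 CPM. Values of some members are uncertain because the counting could not place every read. 27 members have named pseudogenes, 8 of them for MRPS21 alone, and 6 members (MRPL28, MRPL33, MRPL46, MRPS5, MRPS17 and MRPS28) overlap a coding gene on the same strand. A further overlap, with a coding gene on the opposite strand, was found for 20 members, among them MRPS27 (with PTCD2), MRPS25 (with NR2C2), MRPL11 (with PELI3), MRPL43, MRPL33 and MRPS18C. The authors report default settings for the counting. Whether the libraries kept strand was not given in the sources used here, so how such partners affect the counts is unknown.

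Levels of the members spanned a wide range. On the scale of CPM per kilobase of canonical transcript over all 18 libraries, treated ones included, the highest levels were those of MRPS35 of the small subunit (113) and of MRPL3 (97.8) and MRPL37 (62.9) of the large subunit. The lowest were those of MRPL46 (0.315), MRPL4 (0.341) and MRPL19 (0.364). On the same scale, MRPS35 was also the highest in the CHL1 controls (159), whereas the highest in the A375 controls of 72 hours were MRPL3 (99.0) and MRPS34 (94.6) and the lowest was MRPS17 (0.203). MRPL46 and MRPL4 had a mean below 1 CPM, with 3 to 17 and 1 to 25 counts per library. MRPL3 had overlapping controls in the lines at 72 hours, with 152 and 131 CPM in CHL1 and 150 and 188 CPM in A375.

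Untreated CHL1 and A375 cells were set side by side at 72 hours. MRPS17, which encodes a conserved small-subunit protein, lay at 7.43 and 6.67 CPM in the CHL1 controls and at 0.579 and 0.147 CPM in the A375 controls of 72 hours. It stayed between 5.09 and 8.35 CPM in all CHL1 libraries and at or below 0.579 CPM (3 to 16 counts) in all A375 libraries. MRPS35 had 299 and 283 CPM in CHL1 and 81.2 and 94.1 CPM in A375, a level 3.32-fold higher in CHL1. MRPS28 (2.97-fold) and MRPS9 (2.26-fold) were also higher in CHL1, whereas MRPS21 was lower, at 15.4 and 15.1 CPM against 53.5 and 58.2 CPM. The large-subunit genes MRPL43 (0.399-fold) and MRPL33 (0.401-fold) were lower in CHL1 too, as was MRPL46 with its few counts. Of these genes, MRPS17, MRPS28, MRPL33 and MRPL46 overlap coding genes on the same strand. Named pseudogenes number 4 for MRPS17 and 8 for MRPS21. The part of reads that could not be placed in these differences was not tested. In all, 16 members (25.4%) had both CHL1 controls above both A375 controls of 72 hours and 30 (47.6%) had both below, against 44.2% and 42.9% of the 15658 genes whose mean reached 1 CPM. The A375 libraries of 72 hours formed another library set than those of CHL1, so line and set cannot be told apart in these values, and no test was made. The A375 controls of 6 days, 2 of the libraries low in GC-rich transcripts, belonged to the set of CHL1. In them MRPS17 (at most 0.481 CPM), MRPS35 (139.5 and 106.5 CPM) and MRPS21 (39.1 and 57.3 CPM) lay on the same side of CHL1 as at 72 hours, while MRPS28 (34.4 and 22.5 CPM) reached the CHL1 controls of 33.99 and 32.3 CPM. The summed level of all members was close in both lines, with 2478 ± 156 CPM (SD, n = 2) in CHL1 and 2512 ± 257 CPM (SD, n = 2) in A375 at 72 hours. Its parts differed in opposite directions by transcript GC content. Members below the median GC content summed to 1456 CPM in CHL1 against 1114 CPM in A375, and the others to 1021 against 1397 CPM. The part of GC content in the differences between the lines was not tested.

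**Figure D1:**
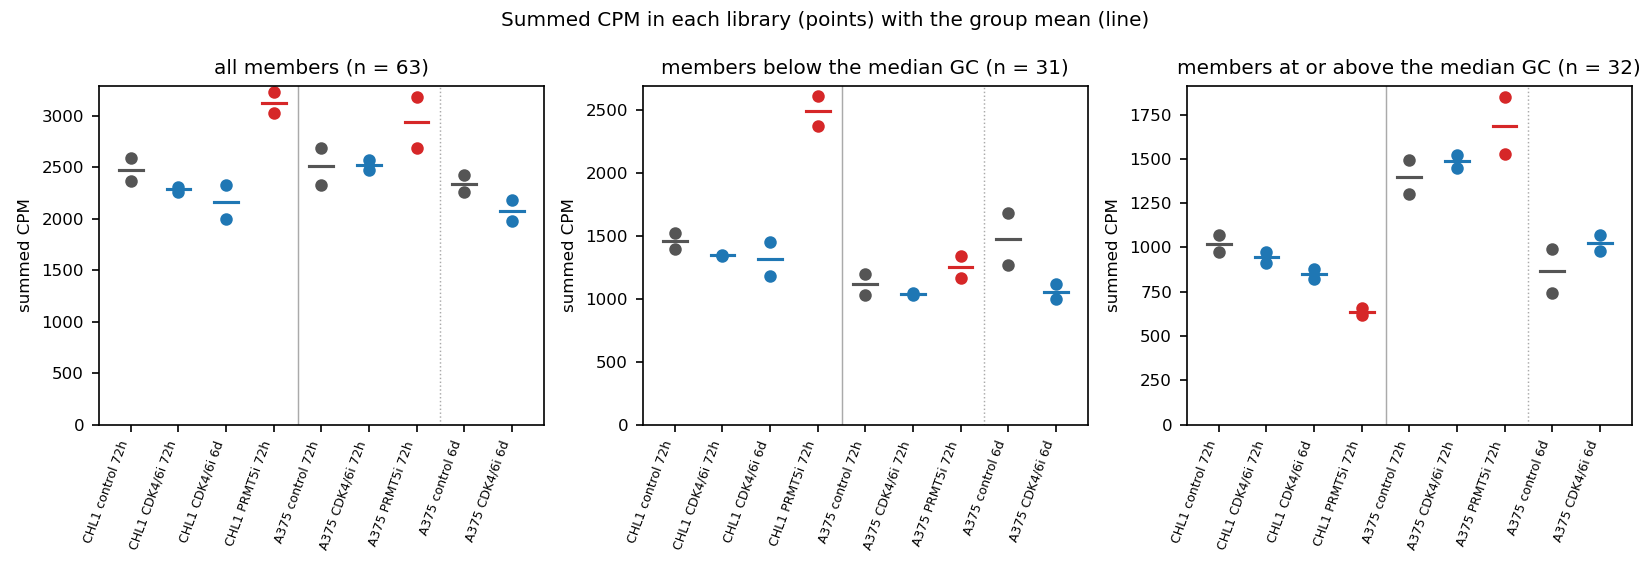
Summed CPM of the members in each of the 18 libraries (points) with group means (lines), for all 63 members (left), the 31 below the median GC content (middle) and the 32 at or above it (right). Grey marks controls, blue CDK4/6i and red PRMT5i. In CHL1 PRMT5i the GC-poorer members sum to 2492 CPM against 1456 CPM in the control, while the GC-richer ones sum to 638 CPM against 1021 CPM.

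CDK4/6i in CHL1 lowered a few members and raised none. In all of this report, a gene was called when edgeR's quasi-likelihood test gave a Benjamini-Hochberg adjusted p below 0.05 over 20705 genes, and fold changes are on the log2 scale with their standard error (SE). Without the GC correction, shares of all genes cover these 20705 genes, of which 15658 had a mean of at least 1 CPM. Among the members, all but MRPL46 and MRPL4 reached that mean, so members and all genes are not sets of like level. At 72 hours, 1 member was called (1.59%), MRPL48, against 4.98% of all genes (2.27% higher and 2.72% lower). After the GC correction 3 members were lower, against 17.3% of genes (8.31% higher and 9.0% lower). At 6 days, 5 members were called, all lower (7.94%), against 16.6% of all genes (8.83% higher and 7.8% lower), so the share of lower members was near that of all genes. The median log2 fold change of the members was -0.08 at 72 hours and -0.18 at 6 days, against 0.00 and 0.03 over all genes. At 6 days, 17 of the 63 members had a log2 fold change above 0, against 51.8% of all genes. Without control replicate 1 or 2, the count at 6 days was 2 or 1.

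MRPL48, a mitochondria-specific protein of the central protuberance of the large subunit, gave the clearest decrease. It lay at 30.9 and 32.4 CPM in the CHL1 controls, at 19.8 and 17.4 CPM after 72 hours of CDK4/6i, and at 14.29 and 14.98 CPM after 6 days. The groups did not overlap. The fold change was -0.77 (SE 0.17, edgeR adjusted p = 0.0251) at 72 hours and -1.10 (SE 0.17, edgeR adjusted p = 0.00201) at 6 days, a level 2.14-fold lower. The 6-day call held without each of the 4 libraries in turn, and the 72-hour call was lost without any of them. In A375, MRPL48 had 35.57 and 36.99 CPM in the 72-hour controls and 28.6 and 25.5 CPM under CDK4/6i (log2 fold change -0.48, SE 0.17, edgeR adjusted p = 0.076). The responses of the lines at 72 hours differed by -0.35 (SE 0.22, edgeR adjusted p = 0.681).

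MRPS27, a small-subunit protein of the pentatricopeptide repeat family, had 110 and 118 CPM in the CHL1 controls, 83.5 and 85.4 CPM at 72 hours and 69.6 and 58.6 CPM at 6 days. Both treated groups lay below both controls. At 6 days the decrease was 1.76-fold (log2 fold change -0.81, SE 0.16, edgeR adjusted p = 0.00544), and at 72 hours the value was -0.44 (SE 0.15, edgeR adjusted p = 0.131). The 6-day call was lost without control replicate 2 (-0.77, edgeR adjusted p = 0.0722) and held without each of the other 3 libraries. In A375 its levels under CDK4/6i were also below both controls at each time, with log2 fold changes of -0.36 at 72 hours and -0.33 at 6 days that did not pass the test (edgeR adjusted p = 0.165 and 0.122). With the GC correction the 6-day value was -0.29 and was called (SE 0.10, edgeR adjusted p = 0.0363).

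The other members called in CHL1 at 6 days were MRPL1, MRPS25 and MRPL11. MRPL1, a protein of the mobile stalk near the exit site of the large subunit, fell from 30.5 and 32.1 CPM to 20.7 and 17.4 CPM (log2 fold change -0.70, SE 0.17, edgeR adjusted p = 0.0153). The small-subunit gene MRPS25 fell from 20.2 and 21.4 CPM to 11.3 and 14.8 CPM (log2 fold change -0.66, SE 0.19, edgeR adjusted p = 0.0337). MRPL11, at the base of the stalk that recruits translation factors, fell from 28.7 and 26.7 CPM to 20.09 and 15.03 CPM (log2 fold change -0.64, SE 0.20, edgeR adjusted p = 0.0453). Each of these 3 calls held without only 1 of the 4 libraries, and MRPL11 was not called with the replicate number as a block (edgeR adjusted p = 0.0646). All 5 calls of 6 days stood after the GC correction, where 9 members were lower and 0 higher, against 33.9% of 12727 genes called (16.3% higher and 17.5% lower).

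Set directly against each other, the CHL1 libraries of 6 days and 72 hours of CDK4/6i gave 0 called members with edgeR, against 0.0145% of all genes. At an unadjusted p below 0.05 there was 1 member, and DESeq2 called 0. The largest values among the members just described were -0.38 (SE 0.15) for MRPS27 and -0.33 (SE 0.17) for MRPL48, and neither passed the test (edgeR adjusted p = 0.571 and 0.692).

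**Figure D2:**
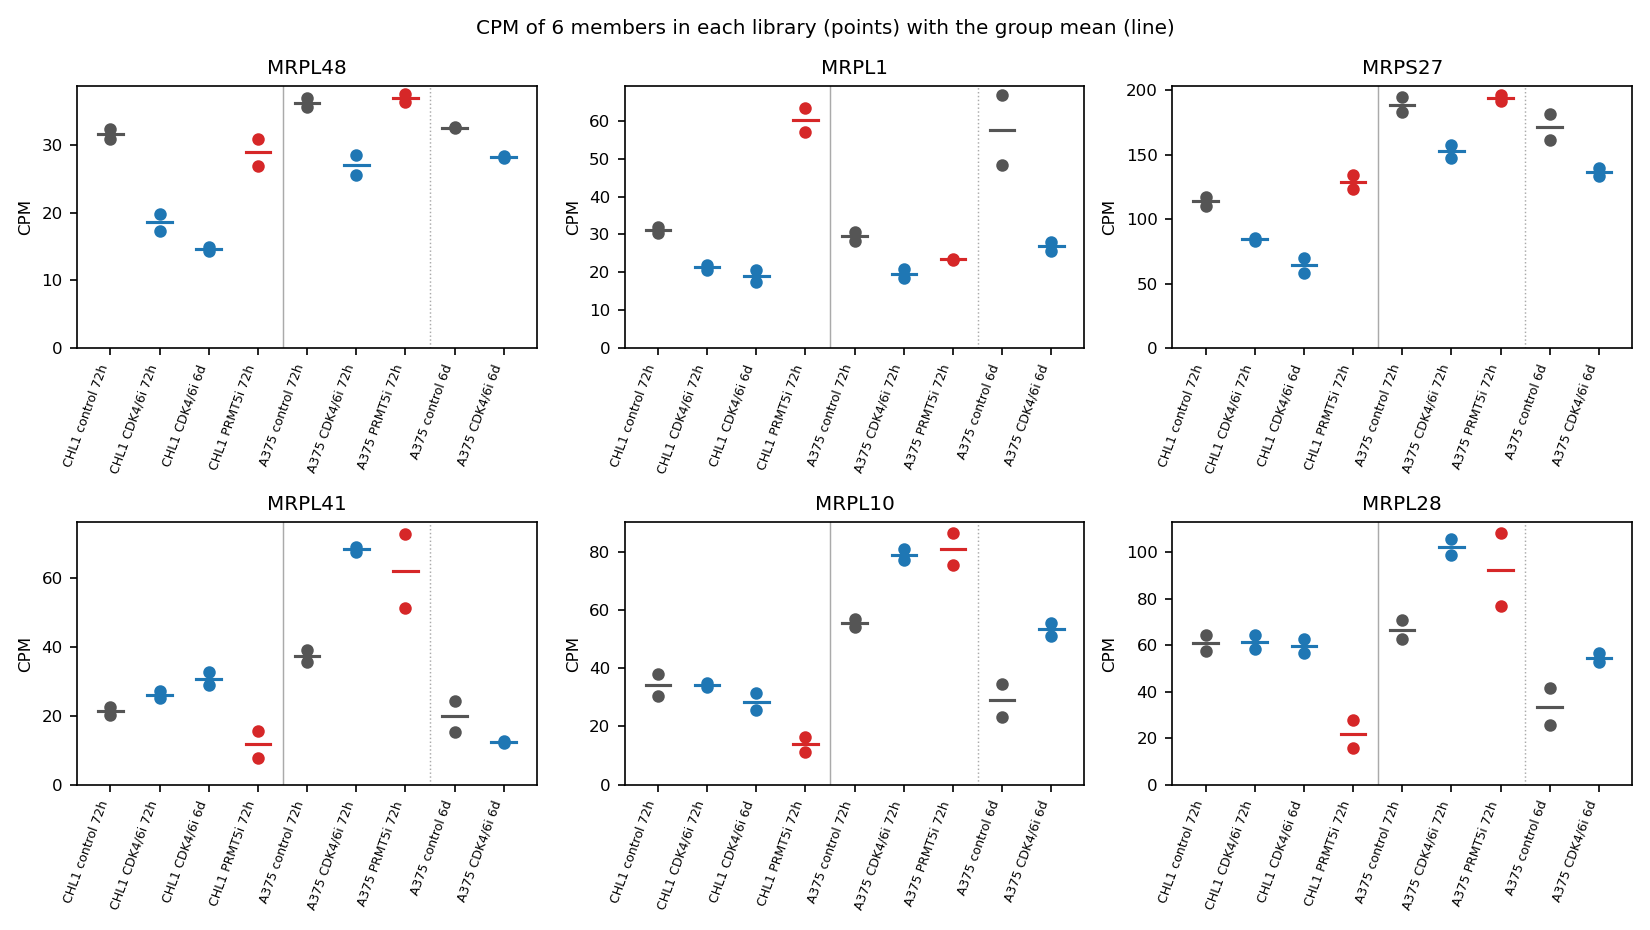
CPM of MRPL48, MRPL1, MRPS27, MRPL41, MRPL10 and MRPL28 in each library (points) with the group mean (line). The solid vertical line separates CHL1 from A375 and the dotted line the A375 samples of 6 days. MRPL48 falls from 31.6 CPM in the CHL1 control to 14.6 CPM after 6 days of CDK4/6i, and MRPL41 rises at 72 hours but falls at 6 days in A375.

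In A375, 72 hours of CDK4/6i changed 4 members (6.35%), 1 higher and 3 lower, against 13.3% of all genes (6.22% higher and 7.11% lower). MRPL41, a mitochondria-specific large-subunit protein also described as a partner of p53 and BCL2, rose from 35.6 and 39.1 CPM to 67.4 and 69.1 CPM (log2 fold change 0.81, SE 0.23, edgeR adjusted p = 0.0264). MRPL39, a mitochondria-specific protein of the large subunit, fell from 26.2 and 31.2 CPM to 17.9 and 16.8 CPM (log2 fold change -0.78, SE 0.20, edgeR adjusted p = 0.0147). MRPS28, a small-subunit protein with a bacterial counterpart, fell from 11.1 and 11.2 CPM to 6.29 and 7.36 CPM (log2 fold change -0.77, SE 0.23, edgeR adjusted p = 0.0407). MRPL1 fell from 28.4 and 30.6 CPM to 18.38 and 20.97 CPM (log2 fold change -0.64, SE 0.19, edgeR adjusted p = 0.0366). In each of these 4 genes the treated libraries lay outside the range of the controls, and all 4 were called after the GC correction in the same direction, where 3 members were higher and 7 lower against 29.9% of 13279 genes (13.5% higher and 16.4% lower). None of the 4 calls held when any 1 of the 4 compared libraries was left out. With only the 72-hour A375 libraries and the replicate number as a block, 28 members were called, 11 higher and 17 lower, these 4 among them. No share of all genes is given for that fit, so this count has no background beside it.

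MRPL1 thus had lower levels under CDK4/6i in both lines at 72 hours, with a log2 fold change of -0.56 (SE 0.17, edgeR adjusted p = 0.0783) in CHL1. The difference between the responses of the lines was 0.03 (SE 0.25). In the same contrast, 0 members were called by edgeR or DESeq2, 1 had an unadjusted p below 0.05, and 0.642% of all genes were called. A p above the threshold does not show that the lines responded alike.

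After 6 days of CDK4/6i in A375, 28 members (44.4%) were called, 13 higher and 15 lower, against 43.1% of all genes (21.8% higher and 21.3% lower). This share was near that of all genes, a set that holds more genes of low counts than the members do. The 6-day controls are the libraries that were poor in GC-rich transcripts, and across the 63 members the fold change followed the transcript GC content (Spearman's rho 0.66 across genes, which share the libraries, and 0.59 over 13514 genes). The 15 lower members had a median GC content of 39.9% and the 13 higher ones of 51.8%. After the GC correction 10 members were higher and 7 lower, against 43.7% of 13279 genes (22.6% higher and 21.1% lower), and of the original 28 calls 7 stood in the same direction, while MRPL13 was called in the opposite one. With the 72-hour control in place of the 6-day control, 0 members were higher and 11 lower, against 31.2% of all genes (16.2% higher and 15% lower), and 3 of the 28 calls stood. MRPS18B was called in the opposite direction (-0.71), and 9 of the 13 higher members had a log2 fold change below 0. Leaving out single libraries moved the count of 28 to 41 (without control replicate 2), 17 (control replicate 1), 14 (CDK4/6i replicate 1) and 8 (CDK4/6i replicate 2).

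Among the lower members, MRPS28 fell from 34.4 and 22.5 CPM to 10.6 and 11.2 CPM, 2.60-fold, with a log2 fold change of -1.38 (SE 0.22, edgeR adjusted p = 0.000233). It kept a log2 fold change of -1.09 after the GC correction (SE 0.16, edgeR adjusted p = 0.000545). Against the 72-hour control, however, its log2 fold change was -0.08 (edgeR adjusted p = 0.828), since the 6-day controls lay above the 72-hour controls of 11.1 and 11.2 CPM. The decreases of MRPS36 (-1.29) and MRPL1 (-1.10) became, after the GC correction, -0.18 (edgeR adjusted p = 0.38) and -0.22 (edgeR adjusted p = 0.155). MRPS18C, whose protein has a bacterial counterpart, and the mitochondria-specific MRPL42 went from -0.89 and -0.88 to -0.24 and -0.12 with that correction. Against the 72-hour control MRPS18C was still lower (-0.69, edgeR adjusted p = 0.0358).

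Among the higher members, MRPL10, which anchors the stalk of the large subunit, rose from 23.4 and 34.7 CPM to 55.7 and 51.1 CPM (log2 fold change 0.87, SE 0.20, edgeR adjusted p = 0.00284). It was still called after the GC correction (0.51, SE 0.12, edgeR adjusted p = 0.00747), but its log2 fold change against the 72-hour control was -0.10. MRPL17, at the polypeptide exit, rose by 0.66 (SE 0.20, edgeR adjusted p = 0.016) and by 0.62 after the correction, with -0.05 against the 72-hour control. For MRPL14, MRPL36 and MRPL28 the log2 fold changes of 0.82, 0.76 and 0.69 became 0.34, 0.26 and 0.19, and none of these passed the test after the correction.

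MRPL41 took opposite directions at the 2 times in A375. It had 15.4 and 24.3 CPM in the 6-day controls and 12.6 and 12.0 CPM under CDK4/6i (log2 fold change -0.70, SE 0.23, edgeR adjusted p = 0.0225, and -1.13 after the GC correction). The difference between the responses at 6 days and 72 hours was -1.51 (SE 0.32, edgeR adjusted p = 0.0364), and MRPL41 was the only member called in this contrast, against 1.08% of all genes (0.174% higher and 0.908% lower). After the GC correction the difference was -1.65 (SE 0.21, edgeR adjusted p = 0.00558), against 1.64% of genes called (0.422% higher and 1.22% lower). Against the 72-hour control, MRPL41 also fell under 6 days of CDK4/6i, with a log2 fold change of -1.65. Of the 8 compared libraries, the call held only without either of the 6-day controls. Time and library set differ together between these 2 comparisons and cannot be told apart.

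PRMT5i in CHL1 gave the largest response, with 19 members higher and 24 lower (43 members, 68.3%), against 54% of all genes (26.4% higher and 27.6% lower). All genes include many of low counts, so these shares are not of like sets. Members with GC-poor transcripts rose and those with GC-rich transcripts fell. The GC content of the 19 higher members lay between 33.5% and 44.5%, and that of the 24 lower members between 44.2% and 66.7%, so that the ranges overlapped only between 44.2% and 44.5%. Spearman's rho between fold change and GC content was -0.85 across the 63 members and -0.82 across 13514 genes. After the GC correction rho was 0.15 over the 60 members that could be corrected (MRPL4, MRPL46 and MRPS2 had too few counts), 8 members were higher and 22 lower, and 36.6% of 12727 genes were called (18.3% in each direction). Of the 43 original calls 16 stood in the same direction, 4 higher and 12 lower, and 3 (MRPL36, MRPL41 and MRPL47) were called in the opposite one. Both treated libraries carried the GC deviation, so treatment and deviation cannot be told apart in the uncorrected values. The correction removes any effect of treatment that follows GC content together with the deviation, so the corrected values do not separate them either. The same holds for A375 at 6 days, where both controls carried the deviation.

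**Figure D3:**
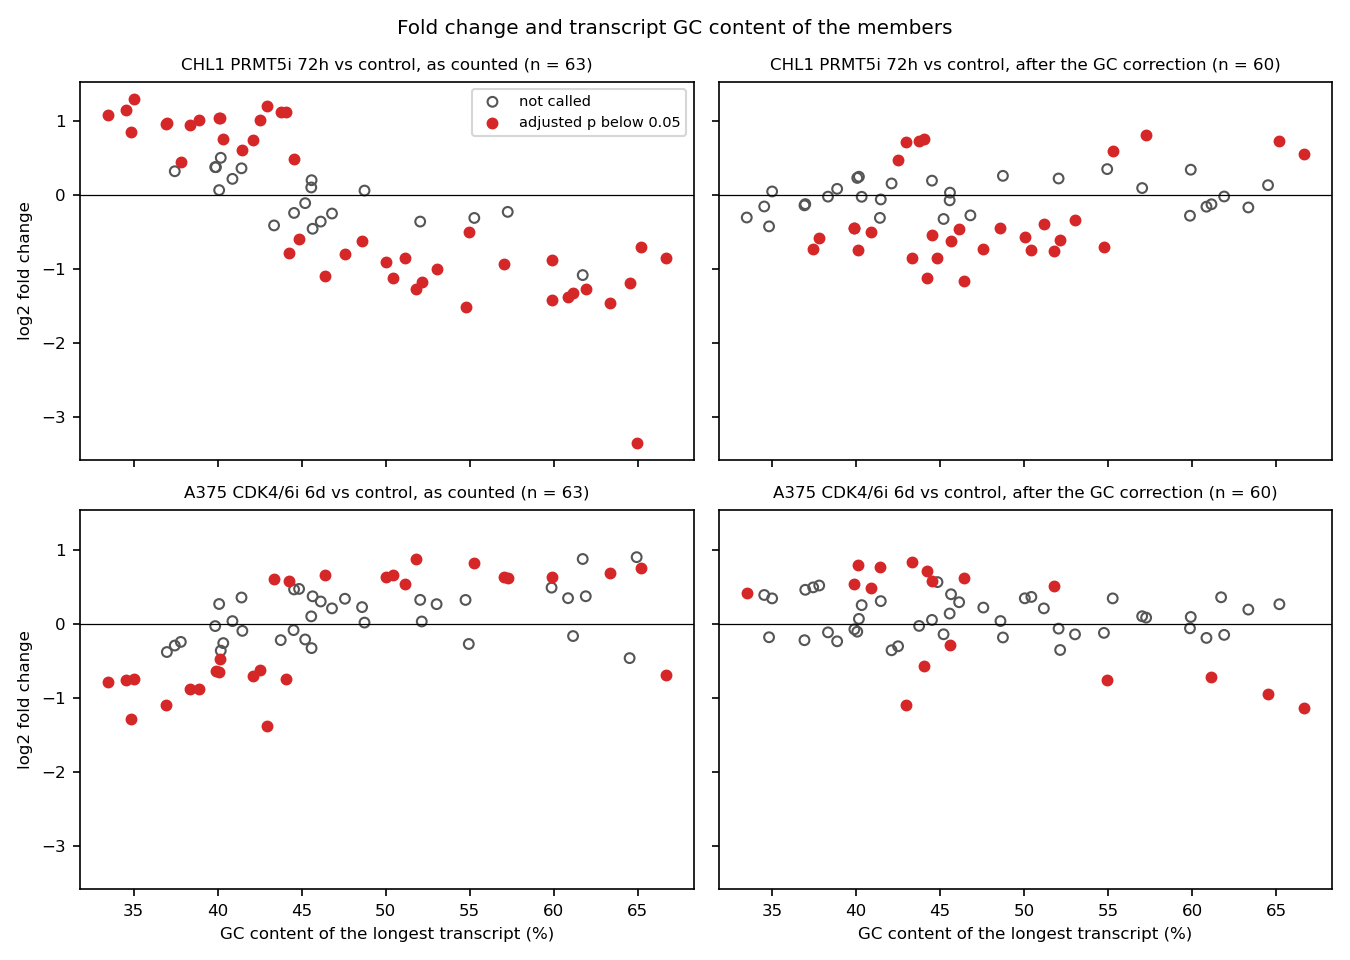
log2 fold change (y axis) against the GC content of the longest transcript (x axis, %) for each member in CHL1 PRMT5i (top) and A375 CDK4/6i at 6 days (bottom), as counted (left) and after the GC correction (right). Filled red points passed an adjusted p of 0.05. As counted, the points fall with GC content in CHL1 (rho -0.85) and rise with it in A375 (rho 0.66), and after the correction rho is 0.15 and -0.28.

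The members with the largest rises in CHL1 PRMT5i were MRPL50, MRPS28, MRPS30, MRPL33 and MRPS9. MRPL50, a mitochondria-specific large-subunit protein, had 25.6 and 22.9 CPM in the controls and 67.0 and 51.2 CPM under PRMT5i (log2 fold change 1.30, SE 0.19, edgeR adjusted p = 0.000242). This became 0.05 after the GC correction. MRPS30, of the large subunit, went from 65.4 and 61.4 CPM to 137 and 142 CPM, with a value of 1.15 that turned to -0.15 after the correction.

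3 of these 5 genes kept their calls after the correction. MRPS28 rose from 33.99 and 32.3 CPM to 70.9 and 79.5 CPM (log2 fold change 1.20, SE 0.16, edgeR adjusted p = 0.000156, and 0.72 corrected). MRPS9, a conserved small-subunit protein, rose by 1.12 (SE 0.16, edgeR adjusted p = 0.000225) and by 0.76 after the correction. MRPL33, of the large subunit, rose by 1.12 (SE 0.21, edgeR adjusted p = 0.000829) and by 0.74 corrected. The abundant MRPL3, a conserved protein of the large subunit, rose from 152 and 131 CPM to 321 and 246 CPM and was also called after the correction (1.02 and 0.48). MRPS28 and MRPL33 each overlap a coding gene on the same strand, and the part of such reads was not tested.

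The largest decreases were those of MRPL4, MRPL20, MRPL28, MRPL55 and MRPL54, all of the large subunit. MRPL4 had 17 and 6 counts in the controls and 1 and 1 under PRMT5i, and was at least 3.84-fold lower against a floor of 3 counts per library. MRPL20 fell from 36.4 and 31.6 CPM to 9.49 and 14.02 CPM (log2 fold change -1.51, SE 0.21, edgeR adjusted p = 0.000158) and kept a value of -0.70 after the correction (SE 0.13, edgeR adjusted p = 0.00323). For MRPL28, MRPL55 and MRPL54 the values of -1.46, -1.42 and -1.38 became -0.17, -0.28 and -0.16.

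The stalk that recruits translation factors, which is not the stalk of MRPL1, has 3 genes in the table (MRPL10, MRPL11 and MRPL54). In CHL1 PRMT5i all 3 fell as counted and 2 after the correction. For this and the next counts, 26.4% of all genes were higher and 27.6% lower, and 18.3% in each direction after the correction. MRPL10 fell from 37.96 and 30.5 CPM to 11.4 and 16.5 CPM (log2 fold change -1.28, SE 0.21, edgeR adjusted p = 0.000444, and -0.75 corrected). MRPL11 fell by 1.18 (SE 0.20, edgeR adjusted p = 0.000472) and was at -0.61 after the correction. MRPL54, at -1.38 as counted, was at -0.16 after the correction (edgeR adjusted p = 0.578). MRPL1, of the other stalk, rose by 0.96 as counted (edgeR adjusted p = 0.00051) and was at -0.14 after the correction (edgeR adjusted p = 0.326). At the polypeptide exit, 4 of 8 genes rose and 3 fell, and after the correction 0 rose and 3 fell. MRPL44, a member of the RNase III family there, was at 0.49 (edgeR adjusted p = 0.0247) and 0.20 corrected, and MRPL45, which contacts the inner membrane, at -0.36 and -0.46, called only after the correction. In the central protuberance 1 of 6 genes rose and 2 fell, and after the correction 0 of 5 rose and 2 fell.

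By subunit, 12 of 41 large-subunit genes rose and 18 fell in CHL1 PRMT5i, and 6 of 21 small-subunit genes rose and 6 fell. Their median log2 fold changes were -0.36 and 0.07, against 0.00 over all genes. After the correction the counts were 6 higher and 13 lower of 39, and 2 higher and 9 lower of 20, with medians of -0.14 and -0.29, so the order of the subunits turned with the processing. The shares of all genes were 26.4% higher and 27.6% lower as counted, and 18.3% in each direction after the correction. The 3 paralogues named MRPS18 took separate paths. MRPS18C rose (1.01, SE 0.24, edgeR adjusted p = 0.00339), MRPS18B fell (-0.85, SE 0.17, edgeR adjusted p = 0.00115), and MRPS18A was at -0.23 (SE 0.20, edgeR adjusted p = 0.368). Corrected, they stood at 0.08, -0.39 and 0.81, and the latter 2 were called. MRPS34, a small-subunit protein, fell by 1.19 as counted and was at 0.13 after the correction.

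The summed level of the members rose in CHL1 PRMT5i, from 2588 and 2367 CPM to 3230 and 3030 CPM, although their median fold change was below 0. MRPS35 alone accounted for 291 CPM in the control and 589 CPM under PRMT5i (log2 fold change 1.04, SE 0.22, edgeR adjusted p = 0.0019), and for 0.23 on the log2 scale after the correction.

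**Figure D4:**
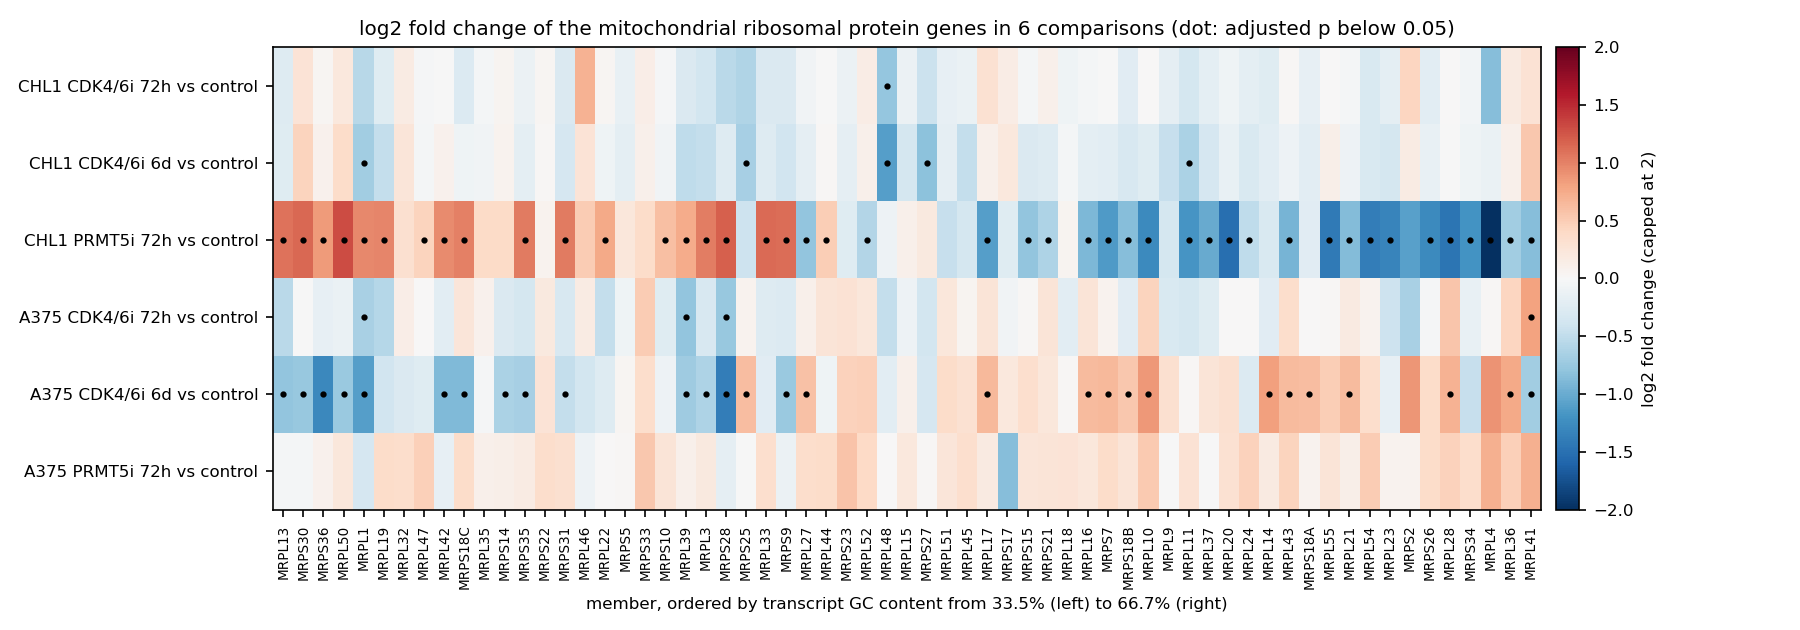
log2 fold change of the 63 members (columns, ordered by transcript GC content from 33.5% to 66.7%) in the 6 comparisons with control (rows). Colours run from blue (lower) to red (higher) and are capped at 2, and dots mark an adjusted p below 0.05. The CHL1 PRMT5i row turns from red to blue along the GC order, and the A375 CDK4/6i row of 6 days from blue to red.

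PRMT5i in A375 called 0 members with edgeR, against 2.61% of all genes (0.874% higher and 1.74% lower). At an unadjusted p below 0.05 there were 6 members, and DESeq2 called 0. However, 52 of the 63 members had a log2 fold change above 0, against 49.8% of all genes, and their median was 0.25 against 0.00. The summed level was 2330 and 2694 CPM in the controls and 2692 and 3186 CPM under PRMT5i, and these ranges overlapped slightly. MRPL41 had the values 51.3 and 72.8 CPM against 35.6 and 39.1 CPM (log2 fold change 0.72, SE 0.23, edgeR adjusted p = 0.111), and MRPL10 had 75.7 and 86.4 CPM against 54.1 and 57.0 CPM (0.53, SE 0.20, edgeR adjusted p = 0.186). After the GC correction 4 members were called, all higher, MRPL41 and MRPL10 among them (0.61 and 0.49, edgeR adjusted p = 0.0261 and 0.0305), against 10.8% of 13279 genes (4.19% higher and 6.62% lower). With only the 72-hour A375 libraries in the fit, 10 members were higher and 0 lower, and with the replicate number as a block beside that, 29 were higher and 1 lower. No share of all genes is printed here for these fits, so the counts alone do not show whether the members stand out.

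The responses to PRMT5i differed between the lines for 38 members (60.3%), 12 higher and 26 lower in CHL1 than in A375, against 40.9% of all genes (18.8% higher and 22.1% lower). The largest positive differences were those of MRPS28 (1.35, SE 0.28, edgeR adjusted p = 0.00112), MRPL1 (1.27, SE 0.25, edgeR adjusted p = 0.000838) and MRPS9 (1.21, SE 0.27, edgeR adjusted p = 0.00193). After the GC correction they were 0.85, 0.09 and 0.85, and MRPL1 was no longer called. The largest negative ones, leaving out MRPL4 with its few counts, were those of MRPL28 (-1.95), MRPL54 (-1.92) and MRPL20 (-1.85), which became -0.56, -0.62 and -0.99, with MRPL54 no longer called. After the correction 3 members were higher and 22 lower in CHL1, against 26.3% of 13514 genes called (13.4% higher and 12.9% lower).

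Over the 6 comparisons with control, 14 members (MRPL15, MRPL18, MRPL32, MRPL35, MRPL45, MRPL46, MRPL51, MRPL9, MRPS17, MRPS2, MRPS22, MRPS23, MRPS33 and MRPS5) were never called, 22 were called once, 23 in 2 comparisons, 3 (MRPL39, MRPL41 and MRPS28) in 3 and MRPL1 in 4. No member was called in all 6. Of the members higher in CHL1 PRMT5i 13 were lower in A375 CDK4/6i at 6 days, and of those lower in the former 10 were higher in the latter. These counts are without the GC correction, and the libraries low in GC-rich transcripts were the treated ones in the first comparison and the controls in the second. Neither the numbers of calls per member nor the opposite calls were counted over all genes, so they have no background beside them. Of all genes, 54% were called in the first comparison and 43.1% in the second. Over 13514 genes the fold change followed GC content with rho -0.82 in the first and 0.59 in the second.

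The other parts of mitochondrial translation gave different counts. For these and the lists that follow, the shares of all genes are those given above for each comparison. The mitochondrial aminoacyl-tRNA synthetases, which charge the tRNAs of the organelle, had 4 of 14 genes lower and 0 higher in CHL1 after 6 days of CDK4/6i. FARS2, for phenylalanine, was lower in all 4 CDK4/6i comparisons, with log2 fold changes of -0.88 and -1.13 in CHL1 and -1.03 and -0.75 in A375, and was also lower in A375 PRMT5i (-0.76). Each of these values was called before and after the GC correction. Among the regulators of mitochondrial gene expression, the transcription factor gene NRF1 was lower in the same 4 CDK4/6i comparisons (-0.63 and -0.63 in CHL1, -0.91 and -0.65 in A375) and higher in CHL1 PRMT5i (0.65), each of which was called before and after the correction. NRF1 was picked from a longer list that includes GABPA and YY1. Values of the other listed regulators are not given here, so NRF1 does not stand for the list. The mitochondrial translation factors had 0 to 1 of 16 genes called under CDK4/6i in CHL1 and in A375 at 72 hours, and 3 higher and 4 lower in A375 at 6 days, a share near the 43.1% of all genes there. The genes for assembly of the ribosome and modification of its RNA had 2 of 19 lower in A375 at 72 hours, TFB1M (-0.64) and METTL15 (-0.86), and 0 called in CHL1 under CDK4/6i. In A375 at 6 days 5 of the 19 were higher and 3 lower, also near the share of all genes, and after the GC correction METTL15 was still lower (-0.89).

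The transcripts encoded by mitochondrial DNA, which the mitochondrial ribosome translates or contains, did not follow the members. In A375 at 72 hours of CDK4/6i, 6 of 15 rose and 0 fell, with a median log2 fold change of 0.89 against -0.01 for the members. MT-CO2, a subunit of cytochrome c oxidase, rose from 95.5 and 90.1 CPM to 207 and 296 CPM (log2 fold change 1.38). At 6 days 13 of 15 fell, with a median of -2.33 against 0.04 for the members and -2.12 after the GC correction. MT-CO2 went from 580 and 480 CPM in the 6-day controls to 139 and 65.3 CPM. With the 72-hour control 1 of 15 fell, at a median of -0.11. In CHL1, 1 of 15 rose at each time of CDK4/6i, MT-CO1 in both (0.98 and 0.95). These RNAs carry short poly-A tails, and poly-A selection was part of the library preparation.

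The cytosolic ribosomal proteins, which build the ribosome outside the organelle, had 54 of 77 genes lower and 3 higher in CHL1 PRMT5i, with a median of -0.89 against -0.24 for the members, and 47 of 74 lower and 1 higher after the GC correction (medians -0.60 and -0.16). The list of OXPHOS subunits, the nuclear-encoded proteins of the respiratory chain chosen by symbol and including some pseudogenes, had 31 of 73 lower and 10 higher there, and 39 of 66 lower and 6 higher after the correction. In A375 PRMT5i the medians of the cytosolic ribosomal proteins (0.34) and the OXPHOS subunits (0.29) were close to that of the members (0.25), and RPS27L, a p53 target, was the only gene of these lists called (1.36). Of 6 subunits of the mitochondrial ribosome listed under other symbols, 4 fell and 1 rose in CHL1 PRMT5i, and 2 fell after the correction (ICT1 and MRP63).

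**Figure D5:**
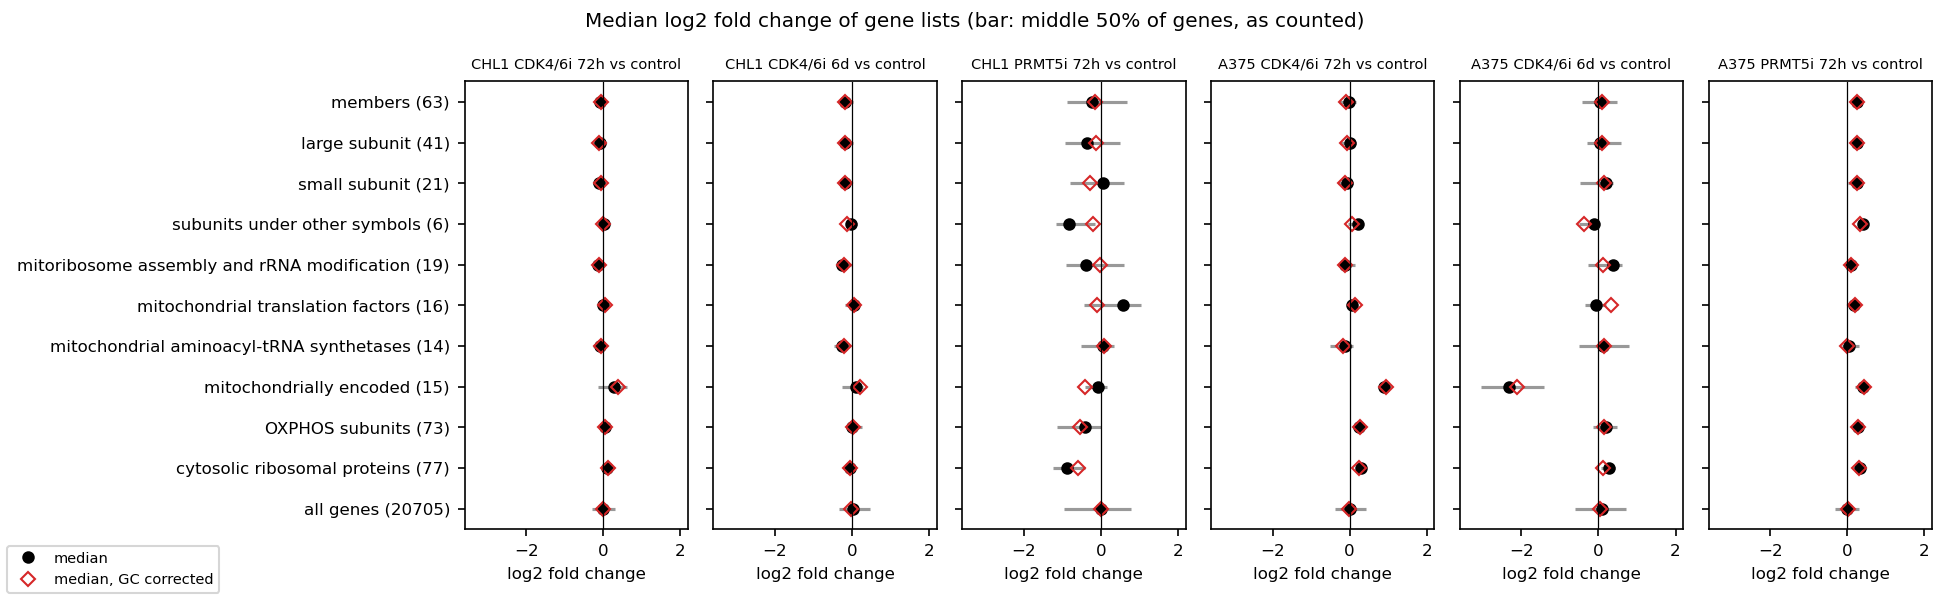
Median log2 fold change (x axis) of the members and 10 other sets of genes, all genes among them (rows, with the number of genes tested) in the 6 comparisons with control. Black points are medians as counted, grey bars the middle 50% of genes, and red diamonds medians after the GC correction. The mitochondrially encoded transcripts stand at 0.89 and -2.33 in A375 under CDK4/6i, while the members stay between -0.24 and 0.25 throughout.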

How the data were processed

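The authors sequenced poly-A RNA in paired ends, aligned the reads to GRCh37 with HISAT 2.0.4 and counted them per gene with HTSeq, for which the sources used here give differing versions. Low genes were removed with edgeR. The strandedness of the libraries was not given in the sources used here. The deposited values, in 1 column for each of the 18 samples, were treated as raw read counts per gene symbol because they are whole numbers whose totals differ between libraries, although the name of the table calls them normalized.

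Groups came from the labels. The counts were tested with edgeR 4.0.16 in R 4.3.3 (quasi-likelihood, TMM, prior count 0.125) in a fit of all libraries of a line (8 for CHL1, 10 for A375), and of all 18 libraries for differences between lines. The adjustment covered 20705 genes with a threshold of 0.05. CPM use TMM sizes of all libraries together. The SE was taken as the fold change divided by the root of the F statistic. GC content came from GENCODE 44 lifted to GRCh37, which matched 15208 symbols directly and 882 by an older name. The GC correction used as an offset a loess curve (span 0.4) fitted to how each library deviated by GC content, for genes whose mean reached 1 CPM. Promoters came from RefSeq, with the first entry used where a gene had several (8 members). The alternatives were a test with DESeq2 1.42.0, scaling by median of ratios, a filter of 1 CPM in 2 libraries, a fit of the compared groups only, a replicate block, a minimum log2 fold change of 0.5, the 72-hour control for A375 at 6 days and leaving out each library. The fits were tested on counts simulated from the CHL1 libraries. Without a GC slope, the uncorrected fit called 4 of 20505 unchanged genes and 123 of 200 changed genes in the right direction. With a linear GC slope in the treated libraries, it called 4291 of the 20505 unchanged genes. The fit with the GC correction called 5 of 12447 unchanged genes in the data with that slope.

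The members, lists, tests and alternatives were chosen with earlier results of these data known. Named members are the 5 called members with the largest rise and fall in each comparison whose treated libraries lay beyond both controls, the 3 highest and lowest by level, members fixed for their role, and the 3 largest in each test of a difference. From other lists a few called genes were chosen after their values were seen. Floors cover counting error only, since reads that carry no molecular identifier need not stem from separate molecules.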

Additional observations from a re-analysis of the deposited data

Results flagged for a closer look

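These results were picked out because the response in 1 condition differed from that in another by a test of the difference itself. In A375, the CDK4/6i response at 6 days minus that at 72 hours was lower for 1 member, MRPL41, at -1.51 on the log2 scale (edgeR adjusted p = 0.0364). The PRMT5i response in CHL1 minus that in A375 was higher for 12 members and lower for 26, with the largest differences in MRPS28 (1.35), MRPL1 (1.27), MRPS9 (1.21), MRPL28 (-1.95), MRPL54 (-1.92) and MRPL20 (-1.85). The values after the GC correction stand in the report. The part of library composition in these differences was not tested beyond that correction.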

How the results depend on the processing

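Counts of called members moved by more than 1.5 times as follows, and the cause was not tested. Shares of all genes are given in the report only for the main fit, the GC correction and the 72-hour control, so the other counts have no background beside them. When the fit held the compared groups alone, which leaves fewer libraries to estimate the spread, 6 members were called in CHL1 at 72 hours of CDK4/6i, 17 in A375 at 72 hours, 7 in A375 at 6 days, 3 in A375 PRMT5i, 3 in the difference of the 72-hour CDK4/6i responses between lines and 0 in that of A375 between times. With the GC correction the counts were 3 and 9 in CHL1 under CDK4/6i at 72 hours and 6 days, 10 and 17 in A375, 4 in A375 PRMT5i and 25 for the difference of the PRMT5i responses. DESeq2 called 2 in CHL1 at 72 hours and 3 in the difference between times in A375, and median-of-ratios scaling gave 2 in A375 at 72 hours. With the 72-hour control, A375 at 6 days had 11. With only the 72-hour A375 libraries and no replicate block, 14 members were called for CDK4/6i and 10 for PRMT5i.

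The labels number the replicates but do not say that equal numbers belong together. Replicate differences correlated at 0.104 to 0.353 between the A375 groups of 72 hours and at -0.234 to 0.269 between the CHL1 groups. With the replicate block, 28 members were called in A375 for CDK4/6i at 72 hours (11 higher, 17 lower) and 30 for PRMT5i (29 higher, 1 lower), and 1, 5, 43 and 0 in the 4 CHL1 contrasts. Of the 5 calls of CHL1 at 6 days 4 were shared under the block, and MRPL11 was lost (edgeR adjusted p = 0.0646). No paired analysis was possible for A375 at 6 days because the labels give its replicates no numbers, and those used here name samples in accession order.

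Named genes that turned direction were MRPS30 in CHL1 PRMT5i with the GC correction (-0.15) and, in A375 at 6 days with the 72-hour control, MRPL10 (-0.1), MRPL14 (-0.2), MRPL28 (-0.34), MRPL17 (-0.05) and MRPL42 (0.03). Of the other values of named genes under alternatives, 262 kept direction and side of the threshold and 63 kept direction only.

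Leaving out each library in turn gave 8 to 41 members in A375 at 6 days, 1 to 5 in CHL1 at 6 days, 32 to 48 in CHL1 PRMT5i, 30 to 38 for the difference of the PRMT5i responses and 0 to 26 for the A375 difference between times. In A375 at 6 days the count was 41 without control replicate 2, 17 without control replicate 1, and 14 and 8 without CDK4/6i replicates 1 and 2. Without control replicate 2 the difference between times had 26. In CHL1 at 6 days it was 2 and 1 without control replicates 1 and 2. At 72 hours of CDK4/6i it was 0 without any library in either line, and it stayed 0 where it was 0. With 2 replicates a group left with 1 library is assumed to vary like the others.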
